A study of Mus musculus with 18 samples.

Results

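The autophagy and lysosome genes described here are 64 of the 16358 genes measured on 18 exon arrays of sorted mouse intestinal epithelial cells. They are the symbols of the probe-to-gene table that start with Atg and a digit, with Atp6v, or with Cts and 1 closing letter, together with Ulk1, Ulk2, Becn1, Sqstm1, Lamp1, Lamp2, Irgm1, Wipi1, Wipi2, Gabarap and Gabarapl1. The choice used gene names and no measured value. Tfeb, also on the list, stands in the table under the older symbol Tcfeb, and Atg13, Atg14 and Atg101 likewise stand under older names. These 4 genes are given apart, which makes 68 in all. The 64 members had 915 probe sets, each a group of probes for part of 1 gene, and a member's value on an array is the median log2 signal of its own probe sets.

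Autophagy encloses cytoplasm in a double membrane, the autophagosome, and delivers it to the lysosome. The ULK kinases start the process, a lipid kinase complex with Beclin 1 marks the membrane, ATG2 and ATG9 supply lipid, and a conjugation system attaches ATG8 proteins such as GABARAP to the growing membrane. Lysosomes are lined by LAMP glycoproteins, acidified by the V-ATPase proton pump, and filled with hydrolases, among them the cathepsins. In Paneth cells, which store antimicrobial proteins in large granules at the crypt base, mouse mutants of Atg16l1 and Irgm1 are known for abnormal granules.

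The mice were 6 females, 99 to 109 days old, that carry a Cyp1a1-H2B-YFP transgene, in which the Cyp1a1 promoter drives a histone fused to YFP, and all of them, for every population, had been given the inducer βNF 10 days before. Cells from each mouse were sorted on CD24 and the lectin UEA-1 into 3 populations of 30000 cells. Paneth cells bound both, YFP-LRCs (label-retaining cells) bound CD24 alone and kept the YFP label, and LCCs bound CD24 alone and had no YFP. Thus LCC and YFP-LRC share a gate and differ by a label that dividing cells dilute, and there was no uninduced group. From each sort 8 ng of RNA was amplified for 1 array, so a population has 6 arrays, numbered here by mouse. The litter label of the YFP-LRC array of mouse 6 has 2 digits in the other order from those of the other arrays of that mouse. In sorted bulk samples, fewer cells of a kind and less RNA per cell cannot be told apart.

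Over all probe sets, LCC 2, 3, 5 and 6 stood apart from the other arrays. The residual spread of an array, the median absolute deviation of its probe sets from their median over the 18 arrays, was 0.279 to 0.557 log2 in LCC, 0.242 to 0.376 in Paneth, and for YFP-LRC 0.257 to 0.349. LCC 2, 3, 5 and 6 had 0.431, 0.458, 0.492 and 0.557, above every array of the other populations. The median correlation with the other arrays was 0.788 to 0.905 in LCC, 0.889 to 0.925 in Paneth, and for YFP-LRC 0.883 to 0.921. Members called against LCC are therefore given with and without LCC 5 and 6, the arrays with the widest spread, and with LCC reduced to arrays 1 and 4. Of the 9 Paneth cell markers measured, 7 were called higher in Paneth than in LCC, among them Mmp7 and Ang4, while the lysozyme gene Lyz1 was high on all arrays and not called (0.34 log2). Of 7 measured tuft cell markers, 6 were called higher in Paneth too. The mean over the tuft list was 8.52 to 9.56 log2 on the Paneth arrays, 7.37 to 7.81 on LCC and 7.76 to 8.31 on YFP-LRC, and its part in the results below was not tested. Of 6 measured markers of crypt base columnar stem cells, 5 were called higher in Paneth, and 5 in YFP-LRC, than among the LCC arrays, with list means of 7.02 to 7.98 on LCC arrays, 8.10 to 8.68 on Paneth and 8.26 to 8.62 on YFP-LRC. Of 8 enteroendocrine markers, 4 were called lower in Paneth than in LCC and 4 higher in YFP-LRC than in Paneth, with list means of 7.52 to 8.31 on LCC arrays, 7.04 to 7.32 on Paneth and 8.09 to 8.46 on YFP-LRC. Of 6 goblet cell markers 3, and of 4 enterocyte markers 1, were called higher in Paneth than in LCC, and their part was not tested either.

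Paneth set against LCC compares the sort that bound both CD24 and UEA-1 with the unlabelled cells of the other gate. Lysosomal and autophagy genes were called higher in Paneth in 17 of 64 cases and lower in 0, at an adjusted p under 0.05 (limma, Benjamini-Hochberg over all 16358 genes). Among all genes, 12% were called higher and 2.53% lower, against 26.6% and 0 of the members. The median difference was 0.35 log2 for the members and 0.03 for all genes. Members also tended to have brighter signals: 39 of 64 had a mean above 6.57, the median of all genes, and of these 39 genes 13 were called higher (33.3%), against 20.1% of all genes above that mark. The median difference among those brighter genes was 0.51 for the members and 0.27 for all. Without adjustment, 32 members (50%) had p under 0.05, as did 30.2% of all genes. Without LCC 5 and 6, 6 members were called higher (Atp6v1c1, Ctsa, Ctsd, Irgm1, Lamp2 and Wipi1) and 1 lower (Ctsj), against 5.25% and 0.96% of all genes. With LCC reduced to arrays 1 and 4, 0 were called in either direction, against 0.862% and 0.0917%. With those arrays alone, all 17 kept a positive difference, with a median of 0.55 against 0.91 over all arrays. With a second quantile normalization, 10 members were called higher and 1 lower (Atg4d), against 6.08% and 4.80% of all genes, and with each array centred on its median, 12 and 2 (Ctsj and Ctsq), against 8.49% and 6.01%. Centring moved the median of all genes from 0.03 to -0.08 and that of the members from 0.35 to 0.24. Leaving out LCC 3 or Paneth 5 gave 11 calls each, against 9.22% and 8.17% of all genes. Leaving out mouse 2, 3, 5 or 6 gave 10, 7, 4 and 7, against 6.55%, 6.16%, 4.74% and 6.95% of all genes. Becn1, not among the 17, was 1 of the calls without Paneth 5 and without mouse 2.

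**Figure D1:**
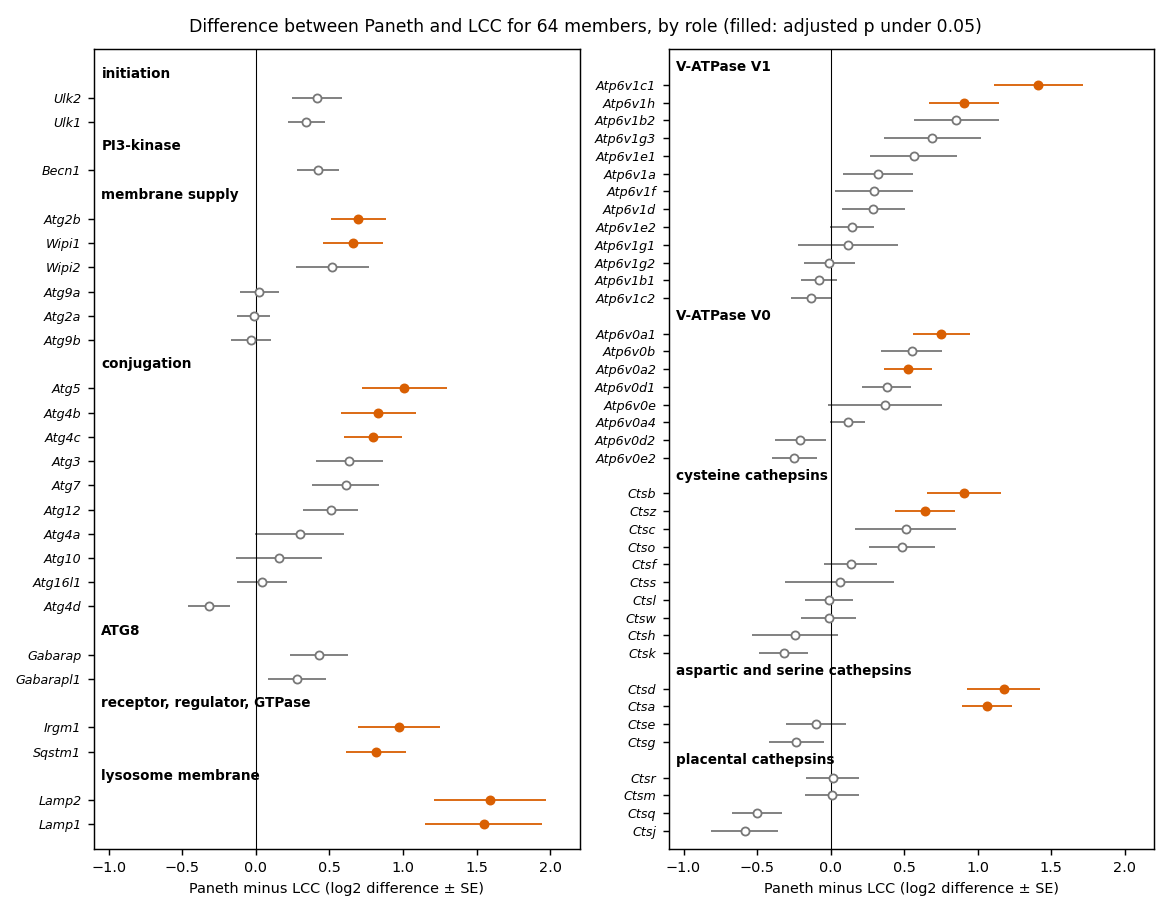
Difference between the Paneth and LCC means for the 64 members, grouped by role, with log2 difference on the horizontal axis and bars of 1 standard error. Filled points are the 17 members with an adjusted p under 0.05, all to the right of 0, and Lamp2 and Lamp1 lie farthest out, at 1.59 and 1.55.

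No member of autophagosome initiation or of the lipid kinase complex (Ulk1, Ulk2 and Becn1) was called in this comparison, while Atg13, outside the 64, was. Ulk1, the kinase that starts autophagy, had values with a lowest, median and highest of 6.80, 6.92 and 7.20 in LCC, 7.16, 7.19 and 7.66 in Paneth, and for YFP-LRC 6.99, 7.22 and 7.55. LCC was lowest, and its highest array overlapped the lowest of both others. The difference between Paneth and LCC was 0.34 ± 0.13 log2 (SE, n = 6 arrays per population; adjusted p = 0.0742, and 0.0439 with the mouse as a replicate block), positive in 6 of 6 mice. Ulk2, its paralogue, differed by 0.42 and was not called. Atg13, the ULK complex partner listed under an older name, was called higher by 0.83 ± 0.17 (adjusted p = 0.00386), with Paneth arrays at 7.12 to 7.73 and LCC arrays at 6.12 to 6.86, which do not overlap. Its call held without any 1 array and without any 1 mouse (adjusted p up to 0.0117 and 0.0316). It was 0.83 without LCC 5 and 6 (adjusted p = 0.0138) and 0.85 with LCC 1 and 4 alone (adjusted p = 0.135). Atg101, another ULK complex subunit, differed by -0.11, and Atg14, which directs the lipid kinase to autophagy, by 0.38, and neither was called. Becn1, the Beclin 1 gene, differed by 0.42 ± 0.14 between Paneth and LCC (adjusted p = 0.0534), and is described with the YFP-LRC comparison below.

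Of the 6 genes that supply or mark the autophagosomal membrane, 2 rose in Paneth relative to LCC (33.3%). Among all genes 12% did, and above the 6.57 mark 20.1%. Atg2b, a lipid transfer protein, had means of 6.35 ± 0.44 in LCC, 7.05 ± 0.30 in Paneth, and for YFP-LRC 6.94 ± 0.20 (SD, n = 6), a difference of 0.70 ± 0.19 for Paneth (adjusted p = 0.0187, and 0.0505 without Paneth 5). It was 0.58 without LCC 5 and 6 (adjusted p = 0.103), and with LCC 1 and 4 alone it was 0.17 (adjusted p = 0.84). Leaving out mouse 2, 3, 5 or 6 ended the call too (adjusted p up to 0.0988). Its paralogue Atg2a differed by -0.02 and was not called. Wipi1, a reader of the lipid mark, had means of 6.66 ± 0.56, 7.32 ± 0.26 and 7.31 ± 0.16, a difference of 0.66 ± 0.20 (adjusted p = 0.0361). That call ended without LCC 2, 3 or 6 or Paneth 2, 3 or 5 (adjusted p up to 0.0906), or without mouse 1, 2, 3 or 6 (up to 0.16). It held without LCC 5 and 6 together, at 0.73 (adjusted p = 0.0146), and with LCC 1 and 4 alone the value was 0.55 (adjusted p = 0.278). Wipi2, a second reader, differed by 0.52 without a call, and the lipid scramblases Atg9a and Atg9b by 0.02 and -0.03.

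In the conjugation machinery, 3 of 10 members rose in Paneth relative to LCC: Atg5 and the proteases Atg4b and Atg4c. That was 30%, against 12% of all genes and 20.1% of those above the 6.57 mark. All 3 had means under that mark, so the latter share is not their background, and the share among genes under the mark was not counted. Atg5, joined to Atg12 in the complex that directs ATG8 to the membrane, had a lowest, median and highest value of 5.04, 5.55 and 6.68 in LCC, 6.33, 6.65 and 7.37 in Paneth, and for YFP-LRC 5.26, 6.37 and 6.61. LCC 1, at 6.68, lay inside the Paneth range, while LCC 3, 5 and 6 lay at 5.04 to 5.14. The difference was 1.01 ± 0.29 (adjusted p = 0.0253), positive in 5 of 6 mice, and its call ended without LCC 3, LCC 5, LCC 6 or Paneth 5 (adjusted p up to 0.0655), or without mouse 3, 5 or 6 (up to 0.148). The difference was 0.71 without LCC 5 and 6 together (adjusted p = 0.167), and with LCC reduced to arrays 1 and 4 it was 0.23 (adjusted p = 0.859). Atg4c, which trims ATG8 proteins, had means of 5.88 ± 0.47 in LCC, 6.67 ± 0.20 in Paneth, and for YFP-LRC 6.29 ± 0.30, and its difference of 0.80 ± 0.19 (adjusted p = 0.0108) kept the call without any 1 array and lost it without mouse 5 (adjusted p = 0.0747). The Atg4c value was 0.52 without LCC 5 and 6 (adjusted p = 0.0773), 0.60 with LCC 1 and 4 alone (adjusted p = 0.261) and 0.61 with residual spread as a covariate (adjusted p = 0.2), uncalled in each. Atg4b had means of 6.05 ± 0.69, 6.88 ± 0.40 and 6.66 ± 0.19, a difference of 0.83 ± 0.25 (adjusted p = 0.0344) that was no longer called once LCC 3, 5 or 6 or any 1 of Paneth 2 to 6 left the fit (adjusted p up to 0.0852), or mouse 3, 4, 5 or 6 (up to 0.166). It was 0.51 without LCC 5 and 6 (adjusted p = 0.226) and 0.76 with LCC 1 and 4 alone (adjusted p = 0.18).

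Atg16l1, the conjugation subunit whose mouse mutants have altered Paneth granules, was not called, and its values overlapped in all populations. Its lowest, median and highest values were 6.87, 7.23 and 7.92 in LCC, 7.09, 7.28 and 7.92 in Paneth, and for YFP-LRC 7.35, 7.49 and 7.71. The difference between Paneth and LCC was 0.04 ± 0.17 (95% interval -0.31 to 0.40; adjusted p = 0.886). Atg7, the activating enzyme of the pathway, had 6.80, 6.94 and 7.46 in LCC, 7.19, 7.60 and 8.16 in Paneth, and for YFP-LRC 6.92, 7.24 and 8.44, and its difference of 0.61 ± 0.23 was not called (adjusted p = 0.0763). The remaining conjugation genes differed by between -0.32 for Atg4d and 0.64 for Atg3, the conjugating enzyme, without a call. Of the ATG8 family, Gabarap differed by 0.43 and Gabarapl1 by 0.28 ± 0.20 (adjusted p = 0.347), neither called. Gabarapl1 had lowest, median and highest values of 6.48, 7.27 and 7.57 in LCC, 6.98, 7.47 and 7.74 in Paneth, and for YFP-LRC 6.69, 7.01 and 7.54, and no population stood apart.

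Sqstm1 and Irgm1 both rose in Paneth relative to LCC. Sqstm1 encodes p62, a receptor that carries ubiquitin-tagged cargo into autophagosomes, and had a lowest, median and highest value of 7.05, 7.71 and 8.17 in LCC, 7.95, 8.47 and 9.16 in Paneth, and for YFP-LRC 7.84, 8.19 and 8.45. Most LCC arrays lay under the lowest Paneth array, but the ranges overlapped. Its difference of 0.82 ± 0.20 (adjusted p = 0.0125; 5 of 6 mice) kept the call without any 1 array, and leaving out mouse 5 or 6 ended it (adjusted p up to 0.0808). The Sqstm1 value was 0.58 without LCC 5 and 6 (adjusted p = 0.0936) and 0.54 with LCC 1 and 4 alone (adjusted p = 0.436). Irgm1, an interferon-induced GTPase linked to autophagy, had 4.80, 5.74 and 6.32 in LCC, 6.09, 6.58 and 7.19 in Paneth, and for YFP-LRC 5.29, 6.15 and 6.80. Its mean was under the 6.57 mark, its ranges overlapped, and the difference was 0.97 ± 0.28 (adjusted p = 0.0262; 6 of 6 mice). That call ended without LCC 3, LCC 6, Paneth 2 or Paneth 5 (adjusted p up to 0.0638), or without mouse 2, 3, 4 or 5 (up to 0.102). It held without LCC 5 and 6 together, at 1.06 (adjusted p = 0.0475), and was 1.11 with LCC 1 and 4 alone (adjusted p = 0.234). Tfeb, a transcription factor that activates lysosomal genes, had 6.23, 6.59 and 6.94 in LCC, 6.24, 6.43 and 6.71 in Paneth, and for YFP-LRC 6.38, 6.47 and 6.85. Its difference between Paneth and LCC was -0.13 ± 0.13 (95% interval -0.41 to 0.15; adjusted p = 0.53), a difference within the spread between arrays.

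Both lysosome membrane genes had the largest differences of the members, and both leaned on the LCC arrays of wide spread. Lamp2, which also serves in chaperone-mediated autophagy, had 5.23, 7.14 and 8.16 in LCC as lowest, median and highest value, 7.91, 8.74 and 8.98 in Paneth, and for YFP-LRC 6.75, 7.81 and 8.08. LCC 6 was lowest, and LCC 1 and 4, at 8.04 and 8.16, lay within the Paneth range. The difference of 1.59 ± 0.38 (3.01-fold; adjusted p = 0.00961; 6 of 6 mice) was 1.11 without LCC 5 and 6 (adjusted p = 0.0461) and 0.50 with LCC 1 and 4 alone (adjusted p = 0.576). Lamp1 had 6.33, 8.39 and 9.09 in LCC, 8.89, 9.53 and 9.79 in Paneth, and for YFP-LRC 8.15, 8.69 and 9.43. LCC 5 and 6 lay at 6.38 and 6.33, below the next LCC array at 8.17. Its difference of 1.55 ± 0.40 (2.92-fold; adjusted p = 0.0146; 5 of 6 mice) was 0.77 without those arrays (adjusted p = 0.0511) and 0.60 with LCC 1 and 4 alone (adjusted p = 0.409). Leaving out single arrays ended neither call, whereas the Lamp1 call ended without mouse 2, 5 or 6 and the Lamp2 call without mouse 3 or 5 (adjusted p up to 0.0881 and 0.0612).

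**Figure D2:**
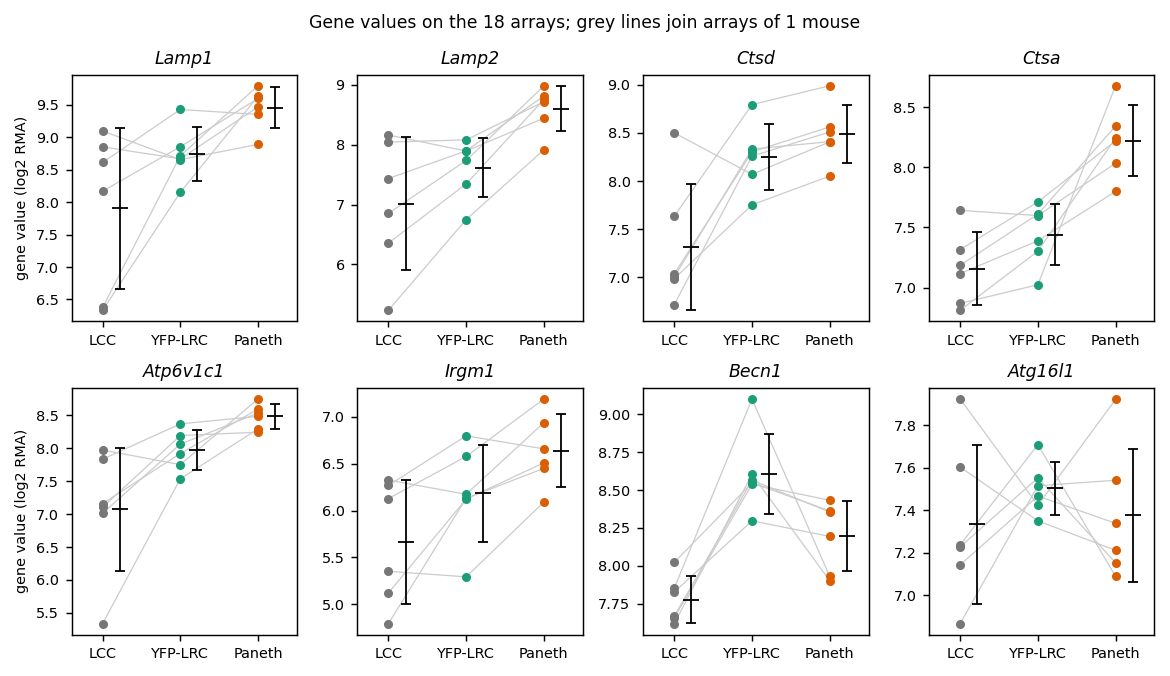
Gene values on each of the 18 arrays (log2 RMA signal on the vertical axis) for 8 members in the 3 populations, with grey lines joining the arrays of 1 mouse and black marks for the mean and SD of a population. The Paneth arrays of Ctsa, at 7.80 to 8.68, lie above all arrays of the other populations, and the YFP-LRC arrays of Becn1, at 8.30 to 9.10, lie above all LCC arrays.

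Of the 21 V-ATPase subunits, 4 rose in Paneth relative to LCC (19.0%, against 12% of all genes and 20.1% of those above the 6.57 mark), and 3 of these had populations that did not overlap. They were 2 of the 13 in the cytosolic V1 sector, which hydrolyses ATP (15.4%), and 2 of the 8 in the membrane-bound V0 sector, which carries protons (25%), so the shares were near those backgrounds. Atp6v1c1, a subunit that links the sectors, had 5.34, 7.13 and 7.97 in LCC as lowest, median and highest value, 8.24, 8.51 and 8.75 in Paneth, and for YFP-LRC 7.54, 7.99 and 8.37. Every Paneth array lay above every LCC array. The difference was 1.41 ± 0.30 (2.66-fold; adjusted p = 0.0054), it held its call without any 1 array and any 1 mouse (adjusted p up to 0.0142 and 0.0317), and it was 0.99 both without LCC 5 and 6 (adjusted p = 0.00796) and with LCC 1 and 4 alone (adjusted p = 0.052). Its tissue-restricted paralogue Atp6v1c2 differed by -0.13 and was not called.

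Atp6v1h, a regulatory subunit of the same sector, had means of 6.05 ± 0.48 in LCC, 6.96 ± 0.17 in Paneth, and for YFP-LRC 6.73 ± 0.55. The Paneth arrays, at 6.72 to 7.22, lay above the LCC arrays, at 5.19 to 6.58, and the difference was 0.91 ± 0.24 (adjusted p = 0.0151; up to 0.0801 without mouse 2, 3 or 5). It was 0.65 without LCC 5 and 6 (adjusted p = 0.0951) and 0.55 with LCC 1 and 4 alone (adjusted p = 0.509). Both V0 genes that rose are forms of the a subunit. Atp6v0a1 had means of 6.94 ± 0.38, 7.69 ± 0.29 and 7.46 ± 0.34, with Paneth arrays from 7.31 and LCC arrays up to 7.28, and differed by 0.75 ± 0.19 (adjusted p = 0.0134; up to 0.0865 without mouse 5 or 6). It was 0.61 without LCC 5 and 6 (adjusted p = 0.0789) and 0.79 with LCC 1 and 4 alone (adjusted p = 0.201). Atp6v0a2 had means of 7.52 ± 0.38, 8.04 ± 0.22 and 7.90 ± 0.16 and differed by 0.52 ± 0.16 (adjusted p = 0.0363), a call that ended without LCC 2, 3, 5 or 6 or Paneth 2, 5 or 6 (adjusted p up to 0.0889) or with the mouse as a replicate block (adjusted p = 0.0552). The Atp6v0a2 value was 0.41 without LCC 5 and 6 (adjusted p = 0.176), with LCC 1 and 4 alone 0.07 (adjusted p = 0.938), and the call also ended without mouse 2, 3, 5 or 6 (up to 0.159). The other subunits ranged from -0.25 for Atp6v0e2 to 0.85 for Atp6v1b2, an ATP-binding subunit, without a call. Over all members, 4 had Paneth arrays wholly above LCC (Ctsa with these 3), where 3.58% of all genes did.

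Among the 18 cathepsins, 4 rose in Paneth relative to LCC (22.2%), and the median difference of the 18 was 0.01. That share was near the 20.1% of all genes above the 6.57 mark, where all genes had 12%. The protective protein gene Ctsa, a serine carboxypeptidase that stabilises other lysosomal enzymes, had 6.81, 7.15 and 7.64 in LCC, 7.80, 8.23 and 8.68 in Paneth, and for YFP-LRC 7.02, 7.49 and 7.71. Every Paneth array lay above every array of both other populations. The difference of 1.06 ± 0.17 (2.09-fold; adjusted p = 0.000525; 6 of 6 mice) was 1.03 without LCC 5 and 6 (adjusted p = 0.0037) and 1.04 with residual spread as a covariate (adjusted p = 0.0128). With LCC 1 and 4 alone it was 0.84 (adjusted p = 0.114).

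Ctsd, the main aspartic protease of lysosomes, had 6.72, 7.02 and 8.50 in LCC, 8.05, 8.46 and 8.99 in Paneth, and for YFP-LRC 7.75, 8.28 and 8.80. LCC 1, at 8.50, was the 1 LCC array within the Paneth range. The difference was 1.18 ± 0.25 (2.26-fold; adjusted p = 0.00476; 5 of 6 mice), with a call that held without any 1 array and any 1 mouse (adjusted p up to 0.0139 and 0.0369) and was 0.96 without LCC 5 and 6 (adjusted p = 0.0383). With LCC 1 and 4 alone it was 0.74 (adjusted p = 0.38). Ctsb, an abundant cysteine protease, had 6.91, 8.19 and 8.93 in LCC, 8.41, 9.01 and 9.43 in Paneth, and for YFP-LRC 8.40, 8.62 and 9.17. Its ranges overlapped, and the difference of 0.91 ± 0.25 (adjusted p = 0.0224) lost its call without Paneth 2 (adjusted p = 0.054) or without mouse 2, 3, 5 or 6 (up to 0.0819). It was 0.57 after a second quantile normalization (adjusted p = 0.0917), 0.63 without LCC 5 and 6 (adjusted p = 0.104) and 0.35 with LCC 1 and 4 alone (adjusted p = 0.676). Ctsz, a carboxypeptidase, had 7.38, 7.76 and 8.58 in LCC, 8.22, 8.49 and 8.71 in Paneth, and for YFP-LRC 7.96, 8.38 and 8.95. The ranges overlapped, and its difference of 0.64 ± 0.20 (adjusted p = 0.0401) was no longer called once LCC 2, 3 or 6 or any 1 of Paneth 3 to 6 left the fit (adjusted p up to 0.0958), and with the mouse as a replicate block (adjusted p = 0.0606). Its value was 0.59 without LCC 5 and 6 (adjusted p = 0.124) and 0.14 with LCC 1 and 4 alone (adjusted p = 0.889), and the call also ended without mouse 2, 3, 4, 5 or 6 (up to 0.188).

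Cathepsins known best from other cells were not called. Ctss, which processes the invariant chain in antigen-presenting cells, had 7.29, 8.33 and 9.58 in LCC, 7.53, 8.44 and 8.99 in Paneth, and for YFP-LRC 7.56, 8.64 and 8.97, and differed by 0.06 ± 0.37 (95% interval -0.71 to 0.83; adjusted p = 0.924). Ctsw, found in cytotoxic lymphocytes, had 4.81, 5.50 and 6.22 in LCC, 5.23, 5.51 and 5.68 in Paneth, and for YFP-LRC 5.37, 5.52 and 5.69 (difference -0.01 ± 0.19, 95% interval -0.40 to 0.37). Ctse, an aspartic protease of the gastric epithelium and of immune cells, had 5.95, 6.36 and 7.19 in LCC, 5.88, 6.32 and 7.08 in Paneth, and for YFP-LRC 5.76, 6.08 and 6.36 (difference -0.10 ± 0.20, adjusted p = 0.764). All ranges of these genes overlapped. The rodent placental cathepsins Ctsj, Ctsm, Ctsq and Ctsr differed by -0.58 to 0.01 and were not called, but Ctsj or Ctsq was called lower in Paneth when arrays were centred, as given with the alternatives.

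Immune cells are rich in lysosomes, and markers of 4 groups of them were read for that reason. Of 10 measured myeloid markers 0 were called higher and 1, Tyrobp, lower in Paneth than in LCC, and the mean over that list was 6.27 to 6.45 log2 on LCC arrays, 6.16 to 6.43 on Paneth and 6.02 to 6.29 on YFP-LRC. Of 8 T and NK cell markers 0 were called, with list means of 5.97 to 6.23 on LCC arrays and 5.54 to 6.0 on Paneth. Of 4 B and plasma cell markers, 1 (Jchain) was called lower in Paneth. Of 7 neutrophil and mast cell markers 1 was called, Kit, higher by 1.57 in Paneth (adjusted p = 5.33e-06) and by 1.26 in YFP-LRC than in LCC, while the mast cell genes Cpa3, Mcpt1 and Mcpt2 were not called. Those list means were 5.40 to 5.82 on LCC arrays, 5.42 to 5.70 on Paneth and 5.37 to 5.70 on YFP-LRC, and the part of such cells in the results was not tested. Log2 array signals have no zero, so the absence of such cells cannot be read from these values.

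The LCC arrays of wide residual spread had low member values. The median deviation of the 64 members from their 18-array means was -0.397 on LCC 5 and -0.346 on LCC 6, and ran up to 0.0103 on LCC 1. Paneth arrays ranged from 0.109 to 0.313 and YFP-LRC arrays from -0.0784 to 0.152. Outside LCC the arrays of widest spread were mixed. Paneth 5 and 6, with the widest spreads there (0.371 and 0.376), had 0.313 and 0.109, the highest and the lowest Paneth values. YFP-LRC 6, with the widest spread of its population (0.349), had -0.0784, the lowest YFP-LRC value. Spreads of 0.431 and above occurred in LCC alone, so at that width spread and population cannot be told apart. Genes above the 6.57 mark had medians of -0.360 to 0.0256, -0.0131 to 0.150 and 0.0116 to 0.134 in the same order. Members therefore shared with other bright genes a low position on the LCC arrays of wide spread, and the part of spread in each difference was not tested beyond the settings without those arrays. With residual spread as a covariate, 1 of the 64 members was called higher, Ctsa, against 2.26% of all genes, so calls were lost among all genes too. Ctsa was the 1 call left of the 17, and the median difference of the 17 was 0.61.

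**Figure D3:**
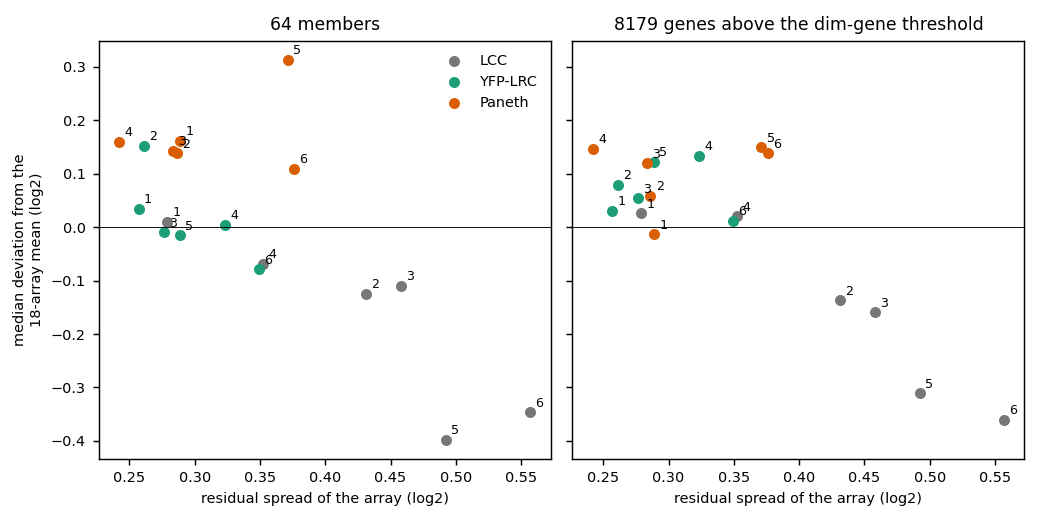
Median deviation of the 64 members (left) and of the 8179 genes above the 6.57 mark (right) from their 18-array means (log2, vertical axis) against the residual spread of the array (log2, horizontal axis), 1 point per array, coloured by population and numbered by mouse. LCC 5 and 6, with spreads of 0.492 and 0.557, have the lowest member values, at -0.397 and -0.346.

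Promoter sequences were read because lysosomal genes are known to carry an E-box core, CACGTG, in the element bound by Tfeb and its relatives. RefSeq promoter windows of the GRCm38.p6 assembly, running from 250 bases before to 50 after a start site, were matched by symbol to 51 of the 64 members. The core CACGTG, the same on both strands, was found in 12 of the 51 (23.5%), against 9.99% of 13065 genes on the arrays with a window. Above the 6.57 mark it was found in 9 of 29 members (31.0%) against 11.9% of genes. The longer form TCACGTG, which includes the core, was found on either strand in 9 members (17.6%) against 5.63% of genes. Lysosome genes had the core in 9 of 31 windows and autophagy genes in 3 of 20. Of 13 members called higher in Paneth with a window, 4 had the core (30.8%), and of 38 not called 8 had it (21.1%). Atp6v0a2, Atp6v1c1, Atp6v1h and Ctsb, also called, were not among the windows.

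The 4 called members with the core are printed here 5′ to 3′ on the strand of the gene, with the core in capitals, so that its number and place can be compared, and Atp6v0b, a V0 subunit that was not called, is added as a contrast. Lamp1 lies at chr8:13158911-13159210 on the plus strand, Ctsa at chr2:164833523-164833822 on the plus strand, Ctsd at chr7:142387778-142388077 on the minus strand, Atg5 at chr10:44268089-44268388 on the plus strand and Atp6v0b at chr4:117887280-117887579 on the minus strand.
Lamp1: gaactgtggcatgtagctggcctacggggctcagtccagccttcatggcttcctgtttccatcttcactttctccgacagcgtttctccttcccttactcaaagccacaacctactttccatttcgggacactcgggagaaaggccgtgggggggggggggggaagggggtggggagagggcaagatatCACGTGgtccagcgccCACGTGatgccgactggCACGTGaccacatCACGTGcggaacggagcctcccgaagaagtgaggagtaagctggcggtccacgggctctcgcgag
Ctsa: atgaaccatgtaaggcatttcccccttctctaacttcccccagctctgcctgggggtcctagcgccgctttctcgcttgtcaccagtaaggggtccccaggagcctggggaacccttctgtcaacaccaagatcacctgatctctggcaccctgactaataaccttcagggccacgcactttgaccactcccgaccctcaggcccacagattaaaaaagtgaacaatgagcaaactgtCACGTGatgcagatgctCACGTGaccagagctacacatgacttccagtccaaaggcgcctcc
Ctsd: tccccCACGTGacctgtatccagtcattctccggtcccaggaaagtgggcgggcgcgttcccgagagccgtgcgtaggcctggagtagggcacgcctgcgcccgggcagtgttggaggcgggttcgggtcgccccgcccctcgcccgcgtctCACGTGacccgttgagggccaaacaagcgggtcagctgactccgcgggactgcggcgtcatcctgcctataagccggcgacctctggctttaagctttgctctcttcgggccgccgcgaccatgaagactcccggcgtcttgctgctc
Atg5: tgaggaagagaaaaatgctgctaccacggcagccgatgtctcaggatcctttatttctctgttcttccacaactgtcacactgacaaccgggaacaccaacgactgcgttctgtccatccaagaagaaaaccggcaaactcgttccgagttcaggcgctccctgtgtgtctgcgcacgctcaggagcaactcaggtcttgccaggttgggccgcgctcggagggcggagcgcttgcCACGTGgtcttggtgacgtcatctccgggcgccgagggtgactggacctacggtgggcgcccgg
Atp6v0b: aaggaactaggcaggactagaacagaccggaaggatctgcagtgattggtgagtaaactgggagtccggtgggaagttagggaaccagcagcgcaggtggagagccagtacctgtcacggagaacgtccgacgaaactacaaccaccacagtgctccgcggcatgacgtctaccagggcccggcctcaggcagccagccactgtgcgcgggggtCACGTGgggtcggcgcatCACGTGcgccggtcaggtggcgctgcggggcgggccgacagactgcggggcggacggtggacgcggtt
Lamp1, with 1.55 log2 between Paneth and LCC, has 4 cores, whose first bases are at -61, -45, -28 and -15, with the start site counted as 1. Ctsa has cores at -12 and 6 in this window and none in a window of another start site, Ctsd at -245 and -98, and Atg5 at -14. Atp6v0b has cores at -36 and -18 and differed by 0.55 without a call, so the core was present on both sides of the threshold. A match of letters is not a measured binding site.

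**Figure D4:**
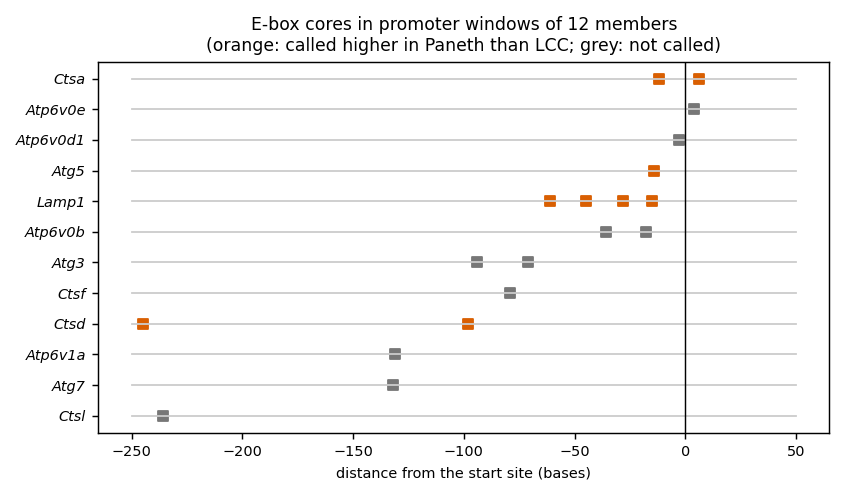
Place of each CACGTG core in the promoter windows of the 12 members that have one, with distance from the start site in bases on the horizontal axis. Orange marks are the 4 members called higher in Paneth than in LCC, grey marks the 8 not called, and Lamp1 carries 4 cores between -61 and -15.

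Comparing YFP-LRC with LCC asks how the label-retaining cells of a gate differ from its unlabelled cells, and Becn1 and Ctsd were the members that rose. Of 64 members 2 were called higher (3.13%) and 0 lower, against 6.33% and 0.917% of all genes, so the share of calls was not above that of all genes. The median difference was 0.20 for the members and 0.04 for all genes. Without adjustment, 22 members (34.4%) had p under 0.05, as did 24.8% of all genes. Among genes above the brightness mark of the Paneth comparison, the medians lay closer, at 0.29 for the members and 0.23 for all genes. There 38.5% of the members and 33.7% of all genes had an unadjusted p under 0.05. Called higher above that mark were 5.13% of the members, against 11.3% of all genes. With the mouse as a replicate block, 5 of the 64 members were called higher (7.81%, against 7.45% of all genes). The block added Atp6v1c1 (adjusted p = 0.0407), Atp6v1h (0.0388) and Wipi1 (0.0448). Without LCC 5 and 6, Becn1 and Wipi1 were called, against 1.19% of all genes, and with LCC reduced to arrays 1 and 4 0 were called. Leaving out LCC 1 gave 8 calls (12.5%, against 10.8% of all genes) and LCC 2, 3, 4 and 6 gave 4, 1, 5 and 1, while leaving out YFP-LRC 2, 4 or 5 gave 1. Lower calls numbered 1 without LCC 1 (Ctsq) and 2 without LCC 4 or Paneth 1 (Ctsg and Ctsq).

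Becn1 encodes Beclin 1, the subunit that activates the class III lipid kinase at the start of autophagosome formation. Its lowest, median and highest values were 7.62, 7.75 and 8.02 in LCC, 7.90, 8.27 and 8.43 in Paneth, and for YFP-LRC 8.30, 8.56 and 9.10. Every YFP-LRC array lay above every LCC array, and the Paneth arrays lay across the gap. The difference between YFP-LRC and LCC was 0.84 ± 0.14 (1.78-fold; adjusted p = 0.00432; 6 of 6 mice). It was 0.86 without LCC 5 and 6 (adjusted p = 0.0186), 0.87 with LCC 1 and 4 alone (adjusted p = 0.238) and 0.82 with residual spread as a covariate (adjusted p = 0.103), the last 2 without a call. After a second quantile normalization it was 0.53 and not called (adjusted p = 0.0842). The call held without any 1 array and any 1 mouse (adjusted p up to 0.0122 and 0.0312), and 14 of its 15 probe sets were higher. Against Paneth, Becn1 in YFP-LRC was 0.41 ± 0.14 higher, in 6 of 6 mice, and was not called (unadjusted p = 0.00918; adjusted p = 0.529).

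Ctsd in YFP-LRC exceeded LCC by 0.94 ± 0.25 (1.92-fold; adjusted p = 0.0306; 5 of 6 mice), with the arrays given above overlapping through LCC 1. That call ended once LCC 3, 5 or 6 or YFP-LRC 2, 4 or 5 left the fit (adjusted p up to 0.07), or mouse 2, 3, 4, 5 or 6 (up to 0.133). Without LCC 5 and 6 the difference was 0.72 (adjusted p = 0.166), and with LCC 1 and 4 alone it was 0.50 (adjusted p = 0.718). The members with the next largest differences were Atp6v1c1 (0.90 ± 0.30, adjusted p = 0.0753) and Lamp1 (0.84 ± 0.40, adjusted p = 0.199), and neither was called. Without LCC 5 and 6 the Lamp1 difference was 0.06, and with LCC 1 and 4 alone -0.11. In those settings Atp6v1c1 was 0.48 and 0.47, and Wipi1, at 0.65 over all arrays, was 0.73 and 0.55. Ctsq, a placental cathepsin with a mean of 3.75 ± 0.37 in LCC and 3.19 ± 0.17 in YFP-LRC, had YFP-LRC arrays wholly below LCC (adjusted p = 0.0545) and, with Becn1 in the other direction, was the 1 other member without overlap. Among all genes, 1.94% had YFP-LRC arrays wholly above LCC and 0.373% wholly below. It was chosen for mention after its values were seen.

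The comparison of YFP-LRC with Paneth uses no LCC array for its differences, and Ctsa was the 1 member called. It fell by 0.78 ± 0.17 log2 in YFP-LRC relative to Paneth (0.582-fold; adjusted p = 0.0492), lower in 6 of 6 mice and without overlap. Calls were 0 higher and 1 lower of 64, against 0.055% and 0.3% of all genes, and 4 members (6.25%) had an unadjusted p under 0.05, as did 5.52% of all genes. The Ctsa call ended with the mouse as a replicate block (adjusted p = 0.0778), without any 1 of 14 of the 18 arrays (all but LCC 1 and 3, Paneth 4 and YFP-LRC 6; adjusted p up to 0.163), and without any 1 mouse (up to 0.377). Its size without LCC 5 and 6 was the same, since the LCC arrays enter through the shared error alone. Over all alternatives, however, the Ctsa difference ran from -0.86 to -0.31 (adjusted p up to 0.829), and the mean over probe sets also ended the call. The median difference was -0.15 for the members and 0.0026 for all genes, and 46 of 64 were negative. Lamp2 differed by -0.99 ± 0.38 (unadjusted p = 0.0173, adjusted p = 0.694), lower in YFP-LRC than in Paneth in 6 of 6 mice. That error includes the spread of the LCC arrays. With LCC reduced to arrays 1 and 4, the Lamp2 difference was the same and its adjusted p was 0.0596, still without a call. Atp6v1d, a V1 stalk subunit, had YFP-LRC arrays of 7.48 to 8.08 wholly under the Paneth arrays of 8.17 to 8.87 and was not called (-0.57 ± 0.21, adjusted p = 0.663). Such separation in the lower direction was found for 2 members and for 0.605% of all genes.

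The order of the population means was LCC, YFP-LRC, Paneth for all 17 members called between Paneth and LCC, where 81.5% of the 1958 genes called higher in Paneth had that order. Over all 64 members, the YFP-LRC mean lay between the others in 38 (59.4%), against 49.5% of all genes. These comparisons share the LCC and Paneth arrays, so the position is a description. On a scale with the LCC mean at 0 and the Paneth mean at 1, the YFP-LRC mean of the 17 had a median place of 0.69, and all genes called higher in Paneth had 0.77. Ctsa was nearest LCC, at 0.27, and Wipi1 nearest Paneth, at 0.99. These places rest on the median over probe sets. With the mean over probe sets, Ctsa was called higher in YFP-LRC than in LCC (limma, adjusted p = 0.0291). Its difference there was 0.28 in the main fit and ran up to 0.55 over the alternatives, so its place near LCC depends on the processing. Lamp2 stood at 0.38, Atg5 at 0.49, Lamp1 at 0.54, Atp6v1c1 at 0.64 and Ctsd at 0.80. Becn1 was outside the scale, at 1.98, its YFP-LRC mean being the highest of the populations.

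**Figure D5:**
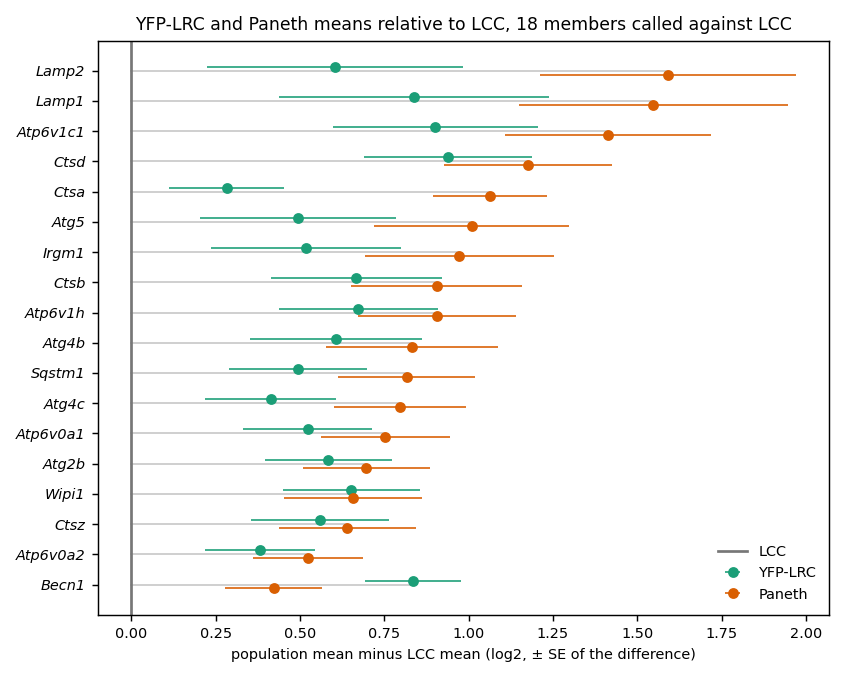
YFP-LRC and Paneth means relative to the LCC mean (log2, bars of 1 standard error of the difference) for the 18 members called in a comparison with LCC. The YFP-LRC mean lies between LCC and Paneth for 17 of them and above Paneth for Becn1.

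Other genes of the same pathways, on a list of 65 that excludes the members, moved in the same comparisons. Of 59 measured, 14 were called higher in Paneth than in LCC and 0 lower, where 2.53% of all genes were lower. The share called higher was 23.7%, against 12% of all genes and 20.1% of those above the 6.57 mark. Their median difference was 0.41, against 0.03 for all genes and 0.27 for those above the mark. The 59 were not split at that mark. Among those with the largest differences, Lgmn, an asparaginyl endopeptidase that processes cathepsins, was higher by 1.66 ± 0.27 (adjusted p = 0.000555), Hexa, a subunit of beta-hexosaminidase, by 1.46 ± 0.26 (adjusted p = 0.00146) and Gabarapl2, an ATG8 protein, by 1.44 ± 0.41 (adjusted p = 0.0244). The acid ceramidase Asah1 was higher by 1.39 ± 0.24 (adjusted p = 0.000943), Stx17, a syntaxin that fuses autophagosomes with lysosomes, by 1.31 ± 0.17 (adjusted p = 8.18e-05) and Scarb2, which carries beta-glucocerebrosidase to lysosomes, by 1.13 ± 0.27 (adjusted p = 0.00908). Without LCC 5 and 6, 8 of the 59 were called, and 4 with LCC 1 and 4 alone. Lgmn and Stx17 kept their calls even with LCC reduced to arrays 1 and 4 (adjusted p = 0.039 and 0.0417). Gabarapl2 lost its call without LCC 2 or 5 or Paneth 4, 5 or 6 (adjusted p up to 0.0625).

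In YFP-LRC relative to LCC, 9 of the 59 were called higher (15.3%) and 0 lower. Among all genes 6.33% were called higher and 0.917% lower, and above the 6.57 mark 11.3% were called higher. Atp6ap2, an accessory protein of the V-ATPase, was higher by 1.13 ± 0.28 (adjusted p = 0.0245), Stx17 by 1.09 ± 0.17 (adjusted p = 0.0024) and Gla, alpha-galactosidase A, by 1.00 ± 0.19 (adjusted p = 0.00647). Pik3c3, the catalytic subunit of the lipid kinase that Beclin 1 activates, was higher by 0.98 ± 0.20 (adjusted p = 0.0103), Glb1, beta-galactosidase, by 0.97 ± 0.23 (adjusted p = 0.02) and Npc2, a cholesterol carrier of the lysosome, by 0.73 ± 0.20 (adjusted p = 0.0334). The Atp6ap2 call ended once LCC 5 or YFP-LRC 1, 4 or 5 left the fit, and the Npc2 call once LCC 2 or 6 or YFP-LRC 1, 2, 4 or 5 did (adjusted p up to 0.059 and 0.0827). Without LCC 5 and 6, 4 were called, with LCC reduced to arrays 1 and 4 0, and without YFP-LRC 1, 4 or 5 singly 5. Pik3c3 had means of 6.66 in LCC, 7.26 in Paneth, and for YFP-LRC 7.64, the same order of populations as Becn1. Its difference between YFP-LRC and Paneth, 0.37 ± 0.20, was not called (adjusted p = 0.966). Atg14, which directs the same kinase to autophagy, did not have that order, with YFP-LRC arrays at 6.15 to 7.23 and Paneth arrays at 6.91 to 7.30. Between YFP-LRC and Paneth 0 of the 59 were called, and 6 had an unadjusted p under 0.05.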

How the data were processed

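Affymetrix Mouse Exon 1.0 ST arrays measured RNA in 18 samples, 6 mice by 3 sorted populations. The log2 values were deposited by the authors and made with Affymetrix Power Tools 1.12.0 by RMA (background correction, quantile normalization, median polish), per the file headers, for the mm9 build, per the submitters' processing notes. The other deposited table held the same values (largest difference 0). For arrays, their number limits the precision. No scan date or batch was used.

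Of 229581 probe sets, the 209279 with exactly 1 symbol were used, the 4446 with several and 15856 with none left out. Of 16380 symbols, 14190 were current, 2145 were updated through a synonym in RefSeq's gene table (GRCm38.p6) and 45 kept as given. A gene's value was the median over its probe sets (median 11), for 16358 genes, with no filter on low values.

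Differences were tested with limma 3.58.1 in R 4.3.3: 1 mean per population over 18 arrays, empirical Bayes, 2-sided, Benjamini-Hochberg over all genes, called at an adjusted p under 0.05. The fit was tested on simulated data. Errors of differences are standard errors, and those of means are SD. P-values and standard errors rest on the spread between the arrays of 6 mice, pooled over all populations. A gene therefore has the same standard error in every comparison. Members, lists, tests and alternatives were chosen with earlier results of these data known. Every called member is named. Full values go to the 8 largest called differences per comparison and to Ulk1, Becn1, Atg5, Atg7, Atg16l1, Gabarapl1, Sqstm1, Tfeb, Irgm1, Lamp1, Lamp2, Ctsb, Ctsd, Ctse, Ctss, Ctsw and Ctsz, and at most 6 other pathway genes are named per direction and comparison. Alternatives were the mouse as a replicate block, a second quantile normalization, centred arrays, the mean over probe sets, dim genes or genes under 3 probe sets left out, a fit on 2 populations, array weights, LCC 1 and 4 as the only LCC arrays, residual spread as a covariate, each array or mouse left out and, added after seeing the data, LCC 5 and 6 left out.

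The pairing by mouse comes from the design text, in which the populations were sorted from the same animals. Deviations of same-mouse arrays from their population means correlated at -0.114 to 0.177 for Paneth and LCC, 0.0154 to 0.406 for YFP-LRC and LCC and 0.0413 to 0.175 for YFP-LRC and Paneth.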

Additional observations from a re-analysis of the deposited data

Results flagged for a closer look

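An array was picked out where its gap to the nearest array of its population, divided by the population's range, was above 0.625, Dixon's 95% value for 6 arrays. Chance picks about 1 in 20 groups, and 10 of the 114 groups of 38 named genes were picked. Among the members, Paneth 1 had the lowest Atg4b value, 6.11, with the next array at 6.87. LCC 6 had the lowest Atp6v1c1 value, 5.34, with the next at 7.01. YFP-LRC 6 had the lowest Atp6v1h value, 5.63, with the next at 6.74, and YFP-LRC 1 the lowest Wipi1 value, 7.01, with the next at 7.32. Paneth 4 was lowest for Gabarapl1, at 6.98 against 7.46, and Paneth 6 highest for Ulk1, at 7.66 against 7.31. Among the other pathway genes, Hexa was highest on Paneth 5, at 9.37 against 8.05, and lowest on YFP-LRC 6, at 6.35 against 7.14. Gla was highest on Paneth 4, at 7.08 against 6.34, and Npc2 lowest on Paneth 5, at 8.21 against 8.77. YFP-LRC 6, the array whose litter label differs from its mouse's others, was lowest in 2 of these 10 cases.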

How the results depend on the processing

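No called difference of a named gene turned its direction in any of the alternatives run. Of the 64 members, 17 were called higher in Paneth than in LCC. They were 10 after a second quantile normalization, 6 without LCC 5 and 6, 1 with residual spread as a covariate and 0 with LCC reduced to arrays 1 and 4, and 4 to 22 with an array or a mouse left out. Called lower were 0, but 1 after a second quantile normalization (Atg4d), 2 with centred arrays, 1 each with the mean over probe sets, with array weights and without LCC 5 and 6 (Ctsj), and 0 to 2 with an array or mouse left out. For YFP-LRC against LCC, the 2 called higher were 5 with the mouse as a replicate block, 10 with the mean over probe sets, 4 with dim genes left out, 1 in a fit on those 2 populations, 0 after a second quantile normalization, 0 with LCC 1 and 4 and 0 with the covariate, and 1 to 8 with an array or mouse left out. The 0 called lower were 1 with centred arrays (Ctsq) and 0 to 2 with an array or mouse left out. For YFP-LRC against Paneth, the 1 called lower was 0 with the mouse as a replicate block, a second quantile normalization, centred arrays, the mean over probe sets, the covariate, and LCC 5 and 6 left out, and 0 to 1 with an array or mouse left out. The cause of these shifts was not tested. Among all genes, the covariate left 2.26% called higher for Paneth against LCC and 0 for YFP-LRC against LCC. Settings with fewer arrays have less power by construction. For Paneth against LCC, the calls of members were 22 without LCC 1 and 21 without LCC 4, against 15.61% and 14.35% of all genes. With LCC 1 and 4 alone, the median difference of the 17 was 0.55, against 0.91, and their median standard error 0.26, against 0.24.

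The other pathway genes called higher in Paneth than in LCC numbered 14. They were 7 after a second quantile normalization, 22 with the mean over probe sets, 8 without LCC 5 and 6, 5 with the covariate, 4 with LCC 1 and 4 and 8 to 20 with an array or mouse left out. For YFP-LRC against LCC, the 9 were 4 after a second quantile normalization, 4 without LCC 5 and 6, 0 with LCC 1 and 4, 0 with the covariate and 2 to 12 with an array or mouse left out. Against Paneth, 0 were called lower, and 1 with LCC 1 and 4 and 1 without LCC 5 and 6. The YFP-LRC mean lay between the others for 38 members, and for 35 to 44 with an array or mouse left out. With the mouse as a replicate block, the 17 members higher in Paneth than in LCC were 16. The block ended the calls of Atp6v0a2 and Ctsz there and of Ctsa against Paneth, and it added Ulk1 for Paneth against LCC, and Atp6v1c1, Atp6v1h and Wipi1, with Lgmn (adjusted p = 0.0238) and Scarb2 (0.0305), for YFP-LRC against LCC. It changed no other call of a named gene. With 4 of 6 LCC arrays of wide spread, differences against LCC are less precise than those between YFP-LRC and Paneth. The pooled standard errors printed here do not show this. In fits on 2 populations alone, the median standard error of the 17 members was 0.23 for Paneth and LCC. It was 0.27 for YFP-LRC and LCC, and 0.18 for YFP-LRC and Paneth.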
